A study of Mus musculus with 4 samples.

Results

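The genes described are the cyclins, cyclin-dependent kinases (CDKs), CDK inhibitors, origin recognition proteins and mitotic regulators measured in mouse SVEC cells, an established endothelial line, treated with lipopolysaccharide (LPS), the outer-membrane glycolipid of Gram-negative bacteria that Toll-like receptor 4 senses. The rule that picks them reads symbols, not ratios: every gene whose single symbol begins as a cyclin (Ccna to Ccnh, Ccnk or Ccnt), a numbered CDK, a Cdkn1 or Cdkn2 inhibitor, an Orc, Bub, Plk or Aurk gene, or a Cdc gene of replication or mitosis. The rule found 54 of the 11138 genes named on the array, 50 of them read by 1 oligonucleotide, and Cdc16, Cdkn1a, Cdkn2b and Orc4 by more than 1. No filter on low values was used, so all 54 were measured. Ccnb1 and Plk1 were not analysed here.

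The groups were LPS 24 h and LPS 4 h. Amplified RNA of LPS-treated SVEC cells was hybridised in each against RNA of control SVEC cells, on 2 arrays per time that differ in the dye of the LPS sample (Cy5, then Cy3). The dose in the labels of 3 of the 4 arrays was 50 ng/ml. The labels name no separate cultures, so the dye-swapped arrays count as 1 RNA pair, and every SD is the technical spread of 2 arrays. SVEC is known as a line immortalised with the SV40 large T antigen, which binds the Rb proteins and p53, and the labels do not name a clone.

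Each value is a log2 ratio, LPS over control, relative to the median spot of its array, and of a pair of values the one with LPS in Cy5 is given first. The direction is likely but not stated with the data: it rests on the dyes in the labels, and the opposite reading would turn every sign. The data hold ratios only, so neither the level of a gene nor the presence of endothelial markers could be read. Among 13 endothelial markers measured, 0 at 24 h and 1 at 4 h (Cdh5, lower, at -3.47 ± 2.12) were 2-fold changed. Of 14 mural and fibroblast markers, 1 at 24 h (Pdgfra, 1.14 ± 0.54) was higher, and at 4 h 6 were higher (Col3a1, Pdgfra, S100a4, Dcn, Acta2 and Col1a1, at 1.20 to 3.05) and 1, Lum, lower, with list medians of 0.28 and -0.01; their part in the members' ratios was not tested. Lymphatic endothelial (4) and leukocyte (8) markers were called at neither time, and of 7 epithelial markers 0 at 24 h and 1 at 4 h, Cldn3, was lower. The 2-fold rule, defined below, took 8.74% of all genes as higher and 5.77% as lower at 4 h. At 24 h it took 1.68% and 0.799%. A ratio in a culture cannot separate more cells in a phase of the cycle from more RNA per cell.

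A cell divides by switching on CDKs in turn, each bound to a cyclin that is made and destroyed once a cycle. D-type cyclins with Cdk4 and Cdk6 free E2F factors from the Rb proteins in G1, cyclin E and then cyclin A with Cdk2 drive DNA replication, and B-type cyclins with Cdk1 drive mitosis. Inhibitors of the Cdkn families hold the kinases back, and the spindle checkpoint holds the anaphase-promoting complex until chromosomes are attached. Endothelial cells are mostly quiescent in a vessel but divide in culture.

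A gene was called higher or lower when the 2 arrays averaged a log2 ratio of 1 or more in size (2-fold) and neither fell short of 1.5-fold in that direction. At 24 h, 0 of the 54 members were higher and 1, Cdc45, was lower (1.85% in either direction), where the rule took 1.68% of all genes as higher, 0.799% as lower and 2.48% in either direction. At 4 h, 9 members (16.7%) were higher, where the rule took 8.74% of all genes, and 3 (5.56%) were lower, where it took 5.77%; in either direction it took 12 members (22.2%) and 14.5% of all genes. The higher genes at 4 h were Cdk4, Cdk1, Ccng1, Ccnb2, Bub1b, Ccng2, Cdc45, Cdc7 and Ccna2, and the lower ones Cdk3, Ccnd3 and Cdkn1b; Bub1b, Ccng2, Cdc45, Cdc7 and Ccna2 turned below 0 at 4 h with arrays centred on abundant transcripts. With 1 RNA pair a time there is no test of these ratios, and the same rule on the dye part (Cy5 over Cy3, which cancels in the mean) took 1.70% of all genes at 24 h and 1.83% at 4 h. Of the members, it took Cdk3 at 24 h and Cdk13 at 4 h. The 4 h calls of Bub1b, Cdc7, Ccnd3 and Cdkn1b needed the array with LPS in Cy5, that of Ccna2 the array with LPS in Cy3, and the 24 h call of Cdc45 the array with LPS in Cy5: without it these genes missed 2-fold.

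The median ratio of the members was 0.17 at 24 h and 0.26 at 4 h, beside 0.02 and 0.00 for all genes. Members above 0 on both arrays numbered 23 (42.6%, all genes 30.5%) at 24 h and 28 (51.9%, all genes 31.2%) at 4 h. Members below 0 on both numbered 10 (18.5%, all genes 26%) and 11 (20.4%, all genes 34.4%). Most ratios were small: 42 members at 24 h and 30 at 4 h had a mean under 0.5 in size. The arrays of a pair correlated across the 54 members at r = 0.12 at 24 h and r = 0.56 at 4 h, a description over genes that share the same RNA.

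**Figure D1:**
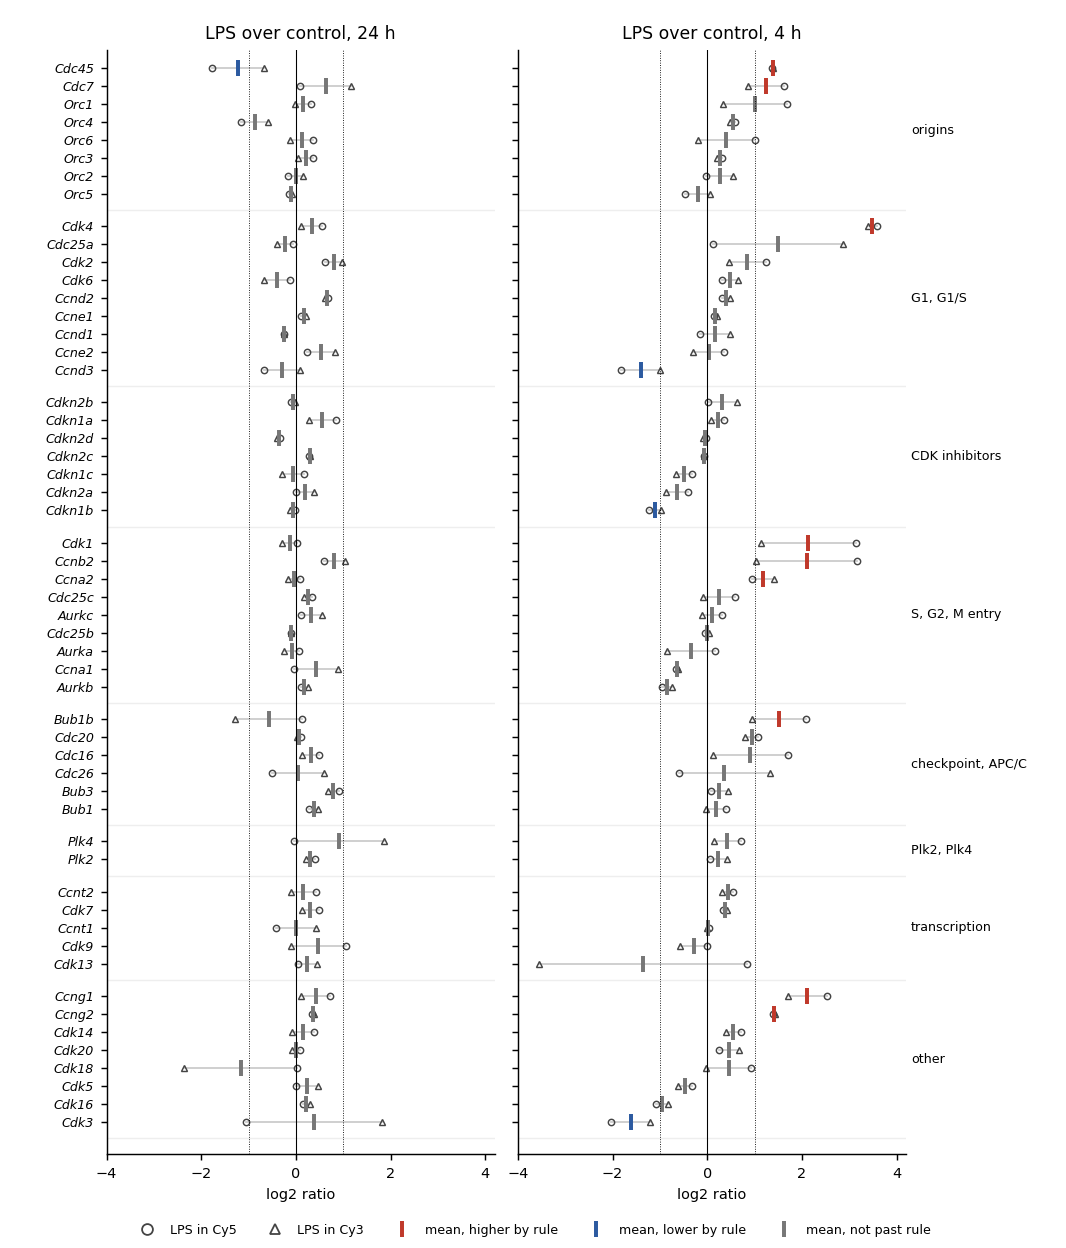
Log2 ratios of LPS over control for the 54 members at 24 h (left) and 4 h (right), by phase of the cycle. Circles are arrays with LPS in Cy5, triangles arrays with LPS in Cy3, bars the mean, coloured where the gene passed the 2-fold rule; dotted lines mark 1 and -1. Coloured bars are 1 of 54 at 24 h and 12 of 54 at 4 h.

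Replication origins are marked in G1 by the origin recognition complex (Orc1 to Orc6) and fired in S phase by the kinase Cdc7 and by Cdc45, a part of the replicative helicase. Among members on opposite sides of 0 at the 2 times, Cdc45 had the widest difference. Its arrays read -1.77 and -0.67 at 24 h (mean -1.22 ± 0.77, SD of 2 arrays), against 1.38 and 1.40 at 4 h (1.39 ± 0.01). Its 2 spots agreed in sign on every array. Cdc7 read 0.09 and 1.17 at 24 h, with 1 of its spots at 2.88 on the second array, against 1.63 and 0.86 at 4 h (1.24 ± 0.54). Both firing factors were thus higher at 4 h relative to the array median, though at -0.53 (Cdc7) and -0.39 (Cdc45) relative to abundant transcripts, and Cdc45 was the only member called at both times, in opposite directions.

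The 6 subunits of the origin recognition complex were called at neither time. Orc4 read -1.16 and -0.58 at 24 h, against 0.59 and 0.49 at 4 h. The 24 h mean of Orc4, -0.87, rested on 1 of its 2 oligonucleotides, at -1.84, where a single spot read -5.58; the other oligonucleotide was at 0.09. Orc1, the subunit that comes and goes with the cycle in mammalian cells, read 0.31 and -0.03 at 24 h and 1.69 and 0.33 at 4 h, so that its 4 h mean of 1.01 was past 2-fold but its second array under 1.5-fold. Orc2, Orc3, Orc5 and Orc6 had means between -0.11 and 0.20 at 24 h and between -0.21 and 0.40 at 4 h.

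In G1, Cdk4, the partner of the D-type cyclins, had the highest ratio of all members. It read 0.56 and 0.12 at 24 h (0.34 ± 0.31), against 3.58 and 3.38 at 4 h (3.48 ± 0.14), or 11.2-fold. Relative to abundant transcripts its 4 h mean was 1.71, or 3.27-fold, still a call. All 4 of its spot readings at 4 h lay between 2.68 and 4.09. Its relative Cdk6 read -0.12 and -0.67 at 24 h, against 0.32 and 0.65 at 4 h, and was called at neither time. The kinase pair that shares the D-type cyclins thus had 4 h ratios of 3.48 for Cdk4 and 0.49 for Cdk6.

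No D-type cyclin was called higher at either time. Ccnd3 was lower at 4 h, at -1.82 and -1.0 (-1.41 ± 0.58), while at 24 h its arrays straddled 0 at -0.68 and 0.08. Ccnd1, the cyclin most tied to growth factor signals, read -0.25 and -0.25 at 24 h and -0.15 and 0.49 at 4 h. Ccnd2 was above 0 on every array, at 0.68 and 0.62 at 24 h and 0.31 and 0.48 at 4 h, and short of 2-fold on each. Of the 3 D-type cyclins, then, 1 was called, in the lower direction and at 4 h.

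At the G1/S step, Cdk2, the partner of cyclins E and A, was above 0 on all arrays, at 0.62 and 0.97 at 24 h and 1.23 and 0.46 at 4 h; neither mean (0.80 and 0.85) reached the rule. The cyclin E genes had means of 0.16 (Ccne1) and 0.53 (Ccne2) at 24 h and of 0.17 and 0.03 at 4 h. Cdc25a, the phosphatase that activates Cdk2, read -0.06 and -0.40 at 24 h, against 0.13 and 2.86 at 4 h. The last value came from 1 spot at 5.43, while the other spot of the oligonucleotide on that array read 0.29.

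Of the 7 CDK inhibitors, 0 at 24 h and 1 at 4 h were called. Cdkn1b (p27), which binds cyclin E and A kinases and also helps assemble cyclin D with Cdk4, was lower at 4 h, at -1.24 and -0.98 (-1.11 ± 0.18), with all 4 spot readings between -1.34 and -0.96. At 24 h it read -0.01 and -0.12. Cdkn1a (p21), the p53 target, read 0.84 and 0.28 at 24 h and 0.36 and 0.09 at 4 h; its oligonucleotides differed at 24 h, at 1.05 and 0.07. Cdkn1b and the kinase Cdk4 thus had 4 h ratios of opposite sign.

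The other inhibitors were called at neither time. Cdkn2c (p18), an inhibitor of Cdk4 and Cdk6, read 0.28 and 0.30 at 24 h, against -0.08 and -0.07 at 4 h. Cdkn2b (p15) read -0.10 and -0.02 at 24 h, against 0.01 and 0.63 at 4 h, the last with 1 spot at 3.42. Cdkn1c, Cdkn2a and Cdkn2d had means of -0.06, 0.19 and -0.37 at 24 h and of -0.49, -0.64 and -0.06 at 4 h. The median of the inhibitors was -0.06 at 24 h and -0.08 at 4 h, the lowest 4 h median of the 8 phase groups.

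Among the genes of S phase, G2 and entry into mitosis, 0 of 9 at 24 h and 3 of 9 at 4 h were called. Cdk1, the mitotic kinase, read 0.03 and -0.29 at 24 h (-0.13 ± 0.22), against 3.13 and 1.13 at 4 h (2.13 ± 1.42). Ccnb2, a B-type cyclin that activates Cdk1, read 0.60 and 1.03 at 24 h (0.81 ± 0.31), against 3.16 and 1.04 at 4 h (2.10 ± 1.5). Ccna2, the cyclin of S phase and G2, read 0.09 and -0.16 at 24 h (-0.04 ± 0.18), against 0.94 and 1.41 at 4 h (1.17 ± 0.33). Cdk1 and the cyclins Ccnb2 and Ccna2 were higher together at 4 h relative to the array median. None of them was called relative to abundant transcripts, with Cdk1 at 0.36, Ccnb2 at 0.33 and Ccna2 at -0.60. Ccnb2 alone of the 3 stayed above 0 on both arrays at 24 h.

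Not all genes of this phase went that way. Aurkb, the Aurora kinase of the chromosomal passenger complex, read 0.10 and 0.26 at 24 h, against -0.96 and -0.74 at 4 h. Ccna1, the cyclin A of the male germ line, read -0.04 and 0.89 at 24 h, against -0.67 and -0.62 at 4 h. Aurka, the Aurora kinase of the spindle poles, read 0.07 and -0.25 at 24 h and 0.16 and -0.84 at 4 h, with arrays on both sides of 0. Neither Aurkb nor Ccna1 reached 2-fold, and the phosphatase genes Cdc25b and Cdc25c and the germ line kinase Aurkc had means between -0.10 and 0.32 at 24 h and between -0.02 and 0.25 at 4 h.

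Promoter regions are shown for the replication and mitotic genes with a single promoter in the table that were higher at 4 h and hold a match to the cell cycle genes homology region, through which the DREAM complex is known to keep mitotic genes silent until G2, and for Cdk4, which was highest and holds none. They are RefSeq promoters of GRCm38.p6, 250 bases before to 50 after the start, read on the strand of the gene: Cdk1 at chr10:69352863-69353162 (minus strand), Ccnb2 at chr9:70421505-70421804 (minus), Bub1b at chr2:118597961-118598260 (plus), Cdc45 at chr16:18811923-18812222 (minus) and Cdk4 at chr10:127063285-127063584 (plus). Capitals mark TTTGAA on either strand and an E2F motif (TTNNCGC with each N a C or G, on either strand).
Cdk1: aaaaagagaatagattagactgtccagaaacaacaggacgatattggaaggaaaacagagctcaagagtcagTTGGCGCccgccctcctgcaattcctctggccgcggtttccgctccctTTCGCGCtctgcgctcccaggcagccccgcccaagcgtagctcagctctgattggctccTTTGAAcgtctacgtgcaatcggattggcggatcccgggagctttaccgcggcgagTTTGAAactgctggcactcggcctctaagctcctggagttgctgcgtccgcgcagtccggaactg
Ccnb2: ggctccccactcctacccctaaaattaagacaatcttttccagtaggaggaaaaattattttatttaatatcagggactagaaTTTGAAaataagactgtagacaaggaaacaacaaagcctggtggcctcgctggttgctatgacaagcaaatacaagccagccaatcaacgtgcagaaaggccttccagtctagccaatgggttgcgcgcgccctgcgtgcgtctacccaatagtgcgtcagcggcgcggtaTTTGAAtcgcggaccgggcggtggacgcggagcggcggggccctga
Bub1b: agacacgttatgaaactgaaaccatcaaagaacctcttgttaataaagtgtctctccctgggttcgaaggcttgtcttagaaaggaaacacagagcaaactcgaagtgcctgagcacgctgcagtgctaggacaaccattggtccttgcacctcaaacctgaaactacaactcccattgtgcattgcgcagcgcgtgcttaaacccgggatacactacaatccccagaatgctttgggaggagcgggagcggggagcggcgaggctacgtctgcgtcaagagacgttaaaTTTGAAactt
Cdc45: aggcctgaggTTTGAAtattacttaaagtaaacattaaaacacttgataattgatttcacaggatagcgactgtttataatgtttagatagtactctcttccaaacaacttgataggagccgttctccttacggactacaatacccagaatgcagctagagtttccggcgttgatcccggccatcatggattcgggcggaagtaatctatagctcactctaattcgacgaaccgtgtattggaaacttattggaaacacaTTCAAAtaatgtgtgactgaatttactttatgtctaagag
Cdk4: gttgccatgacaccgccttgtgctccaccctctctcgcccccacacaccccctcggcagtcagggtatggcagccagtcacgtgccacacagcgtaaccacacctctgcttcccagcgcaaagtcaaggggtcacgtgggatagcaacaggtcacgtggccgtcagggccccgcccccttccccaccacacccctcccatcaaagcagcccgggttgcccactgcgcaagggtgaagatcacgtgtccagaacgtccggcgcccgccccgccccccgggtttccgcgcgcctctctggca

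Counted from the start, Cdk1 has TTTGAA from position -15 and from -71, and E2F matches from -178 and -130. Ccnb2 has TTTGAA from 4 and -167, Bub1b from 40, and Cdc45 from -240 and, on the opposite strand, from 10. Of the 54 members, 45 had a promoter in the table, 55 promoters in all. TTTGAA was in 6 of the 9 promoters (66.7%) of 8 genes higher at 4 h, in 0 of 3 promoters of lower genes and in 6 of 43 (14%) of genes not called, beside 13.8% of the promoters of named genes of the array and 17.9% of the whole table. The 5 higher genes that hold it are the 4 printed and Cdc7, which has 2 promoters in the table and is not printed. The 2 promoters of Cdc7 overlap and share the same TTTGAA match. By gene, TTTGAA was thus in 5 of 8 higher, 0 of 2 lower and 5 of 35 not called. Over the named genes of the array with a promoter it was in 1442 of 8849. An E2F match was in 3 of the 9 promoters of higher genes (Cdk1 and both of Cdc7), 0 of the 3 and 9 of the 43, beside 13.7% and 9.57%. The motifs do not overlap each other in the printed sequences, and a match of so few letters is a description, not a site.

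The spindle checkpoint and the anaphase-promoting complex had 0 of 6 members called at 24 h and 1 at 4 h. Bub1b (BubR1), a checkpoint protein that blocks Cdc20, read 0.13 and -1.28 at 24 h, against 2.08 and 0.95 at 4 h (1.51 ± 0.80). Cdc20, the activator that the checkpoint holds, read 0.11 and 0.03 at 24 h and 1.07 and 0.80 at 4 h; its 4 h mean of 0.93 was short of 2-fold, and 1 of its 2 spots was at 0.00 with LPS in Cy5 where the other was at 2.14. With ratios of exactly 1 taken as not measured, Cdc20 was called higher at 4 h, at 1.47. Bub1, the checkpoint kinase, read 0.28 and 0.47 at 24 h and 0.39 and -0.04 at 4 h. Bub3, which carries Bub1 and Bub1b to kinetochores, read 0.90 and 0.67 at 24 h and 0.07 and 0.44 at 4 h. Of the 3 Bub genes, then, Bub1b was called at 4 h, and Bub3 had the highest ratio at 24 h.

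The complex's subunit Cdc16 was split by probe: its oligonucleotides read 0.27 and 0.36 at 24 h, and -0.52 and 2.33 at 4 h. Cdc26, a small subunit, had arrays of opposite sign at both times (-0.51 and 0.59 at 24 h, -0.61 and 1.31 at 4 h). Plk4, the kinase that starts centriole duplication, read -0.03 and 1.86 at 24 h and 0.70 and 0.14 at 4 h, and Plk2, a stress-induced relative, had means of 0.30 and 0.23. None of these was called at either time.

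**Figure D2:**
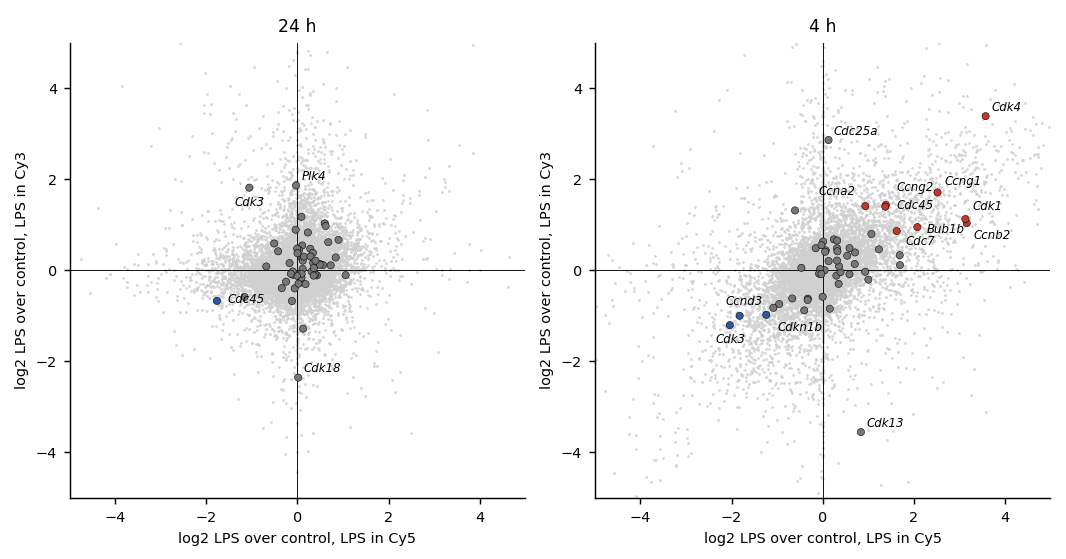
Log2 ratio with LPS in Cy5 (x axis) against LPS in Cy3 (y axis) at 24 h (left) and 4 h (right); coloured points are members past the 2-fold rule (red higher, blue lower), dark grey the other members, light grey all 11138 genes, of which some lie beyond the axes. Called members have the same sign on both arrays because the rule demands it. Over the 54 members r was 0.12 at 24 h and 0.56 at 4 h. At 24 h most members that are far from 0 are so on a single array.

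Among the other cyclins and kinases, 0 of 8 at 24 h and 3 at 4 h were called, both cyclin G genes higher and Cdk3 lower. Ccng1, a p53 target, read 0.73 and 0.11 at 24 h (0.42 ± 0.44), against 2.52 and 1.71 at 4 h (2.11 ± 0.57). Ccng2, which is linked to arrest of the cycle, read 0.34 and 0.38 at 24 h (0.36 ± 0.03), against 1.38 and 1.43 at 4 h (1.41 ± 0.03). Both were above 0 on every array and higher at 4 h relative to the array median, while relative to abundant transcripts neither was called, with Ccng1 at 0.34 and Ccng2 at -0.36. Cdkn1a, another p53 target, had a 4 h mean of 0.22.

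Cdk3, which RefSeq lists in the mouse as a transcribed pseudogene, passed the rule at 4 h at -2.04 and -1.20 (-1.62 ± 0.59). This call rests on 1 spot per array, at -4.27 and -2.42, while the other spot of the same oligonucleotide read 0.19 and 0.01. At 24 h its arrays disagreed, at -1.06 and 1.81. Cdk16, a kinase of the PCTAIRE group, read 0.14 and 0.30 at 24 h, against -1.08 and -0.82 at 4 h (-0.95 ± 0.18), just short of 2-fold. Cdk18 at 24 h (0.02 and -2.36) and Cdk13 at 4 h (0.84 and -3.55) had means past 2-fold that 1 array made. Cdk5, Cdk14 and Cdk20 had means between 0.01 and 0.23 at 24 h and between -0.47 and 0.55 at 4 h.

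Of the 5 cyclins and CDKs that act on RNA polymerase II, 0 were called at either time. Cdk7, of the CDK-activating kinase, had means of 0.31 at 24 h and 0.37 at 4 h, and Cdk9, the kinase of the elongation factor P-TEFb, of 0.48 and -0.29. Its cyclins Ccnt1 and Ccnt2 had means of 0.00 and 0.16 at 24 h and 0.02 and 0.43 at 4 h. Cdk13, the remaining one, had arrays of opposite sign at 4 h.

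**Figure D3:**
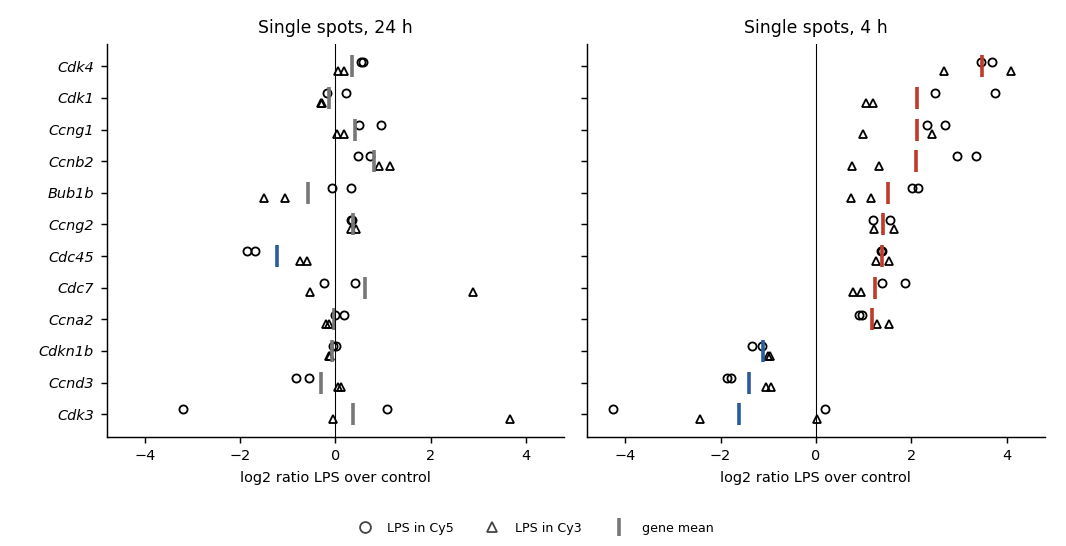
Log2 ratio of each spot for the 12 members called at 4 h, at 24 h (left) and 4 h (right); circles have LPS in Cy5, triangles LPS in Cy3, and bars are gene means, coloured where called. At 4 h the spots of each called member except Cdk3 lie on one side of 0, while Cdk3 has a spot near 0 on each array.

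Between the times, a member was counted as different when its means lay 1 or more apart (log2) and the array values at 24 h did not overlap those at 4 h. By this rule 10 members (18.5%) were lower at 24 h than at 4 h, where it took 9.99% of all genes, and 6 (11.1%) were higher, where it took 8.23%. This balance turned with arrays centred on abundant transcripts. There 1 member, Cdk4, was lower and 39 were higher at 24 h than at 4 h. That centring moved the median of all genes to -0.13 at 24 h and -1.77 at 4 h. How many of all genes passed the difference rule under it was not counted, so the 39 cannot be read as particular to the members. Of the differences below 0 that follow, those of Orc4 (0.21), Ccnb2 (0.33), Ccna2 (0.41), Ccng2 (0.57) and Cdc7 (1.01) turned above 0 there. The differences, 24 h minus 4 h, were -3.14 for Cdk4, -2.61 for Cdc45, -2.26 for Cdk1, -2.09 for Bub1b, -1.72 for Cdc25a, -1.70 for Ccng1, -1.41 for Orc4, -1.28 for Ccnb2, -1.21 for Ccna2 and -1.05 for Ccng2. Of the 9 members higher at 4 h, Cdc7 was the exception, at -0.61. The 6 upward differences belonged to Cdk3 (2.0), Cdk16 (1.17), Ccnd3 (1.11), Ccna1 (1.07), Cdkn1b (1.04) and Aurkb (1.03). For 8 members (14.8%) both arrays at 24 h lay on the opposite side of 0 from both at 4 h, as for 14.8% of all genes. Whether the times shared control RNA is not known.

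**Figure D4:**
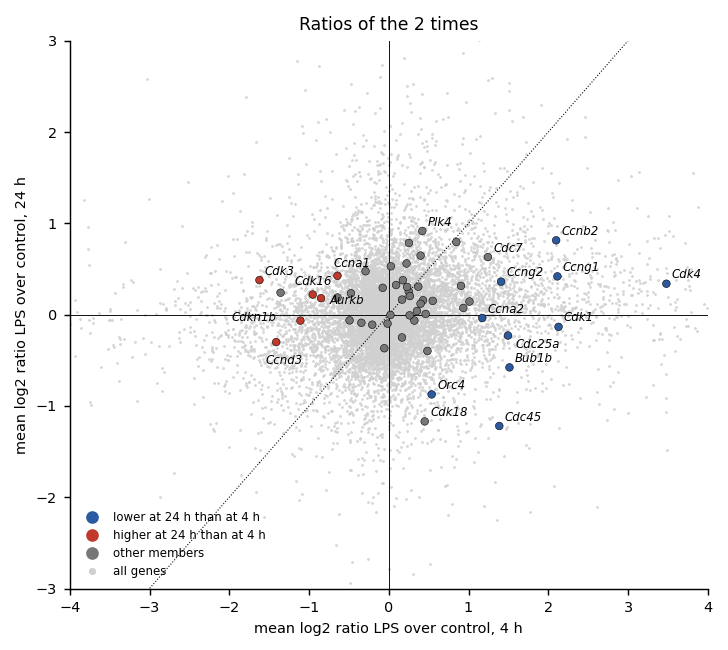
Mean log2 ratio at 4 h (x axis) against 24 h (y axis) for the 54 members over all genes (light grey, some beyond the axes); blue members were lower at 24 h than at 4 h by the rule, red members higher, and the dotted line marks equal ratios. The 10 blue members lie between 0.54 and 3.48 at 4 h and between -1.22 and 0.81 at 24 h. With arrays centred on abundant transcripts 1 member would be lower and 39 higher, while the median of all genes moved to -1.77 at 4 h.

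A fit across both times, limma on the 2 pair means with 1 residual degree of freedom, called 0 of the 54 members and 0 of 11138 genes (0%) at a Benjamini-Hochberg adjusted p under 0.05. At an unadjusted p under 0.05 it took 3 members (Ccnb2, Cdk2 and Cdc7) and 513 genes (4.61%). The smallest adjusted p of a member in limma was 0.761, for several at once. Ccnb2, the first of them, had a mean over both times of 1.46 with a standard error of 0.43, and was above 0 on all 4 arrays. With the 4 arrays entered separately, limma also called 0 members, with 9 members and 1245 of the 11138 genes at an unadjusted p under 0.05. With a dye term these were 6 members and 1074 genes. Both fits treat the dye-swapped arrays of 1 RNA pair as independent samples, which they are not.

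In 5 lists of 95 measured genes that are no members, 1 gene at 24 h was higher and 0 lower, and 20 at 4 h were higher (21.1%, all genes 8.74%) and 3 lower (3.16%, all genes 5.77%), with medians of 0.05 and 0.34. Relative to abundant transcripts, 0 of the 95 at 24 h were called, and at 4 h 2 were higher and 61 lower, with medians of -0.10 and -1.43. Under that centring 131 of all 11138 genes were higher and 8951 lower at 4 h, and 118 and 186 at 24 h. The list of CDK regulators and ubiquitin ligases had 0 of 17 higher at 24 h and 7 of 17 at 4 h. Among these were Cks2, a CDK-binding protein, at -0.23 ± 0.16 at 24 h and 2.28 ± 0.09 at 4 h, and Skp2, the ligase subunit that marks p27 for destruction, at 0.07 ± 0.54 at 24 h and 2.03 ± 0.22 at 4 h. Ube2c, the E2 enzyme of the anaphase-promoting complex, read -0.30 ± 0.03 at 24 h and 1.61 ± 0.49 at 4 h, and Pkmyt1, the kinase that inhibits Cdk1, -0.14 ± 0.50 at 24 h and 1.53 ± 0.11 at 4 h. The protein p27 is encoded by Cdkn1b, the inhibitor whose RNA was lower at 4 h. These arrays read no protein, and a link between the ratios of Skp2 and Cdkn1b was not tested. Cks1b, of the same list, was called at neither time, at 0.01 ± 0.08 at 24 h and -0.78 ± 0.25 at 4 h.

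In the licensing and replication list, 0 of 29 at 24 h were called, and at 4 h 7 were higher and 1, Rpa2, lower. Gins1, a partner of Cdc45 in the replicative helicase, read -0.15 ± 0.19 at 24 h and 3.84 ± 0.95 at 4 h. Rrm1, of ribonucleotide reductase, read 0.60 ± 0.09 at 24 h and 2.0 ± 0.77 at 4 h. In the spindle and kinetochore list, 1 of 27 at 24 h (Cdca8, 1.05 ± 0.62) and 4 at 4 h were higher, among them Kif22 at 2.89 ± 0.20 and Racgap1 at 2.11 ± 0.17. Of 8 Rb and E2F genes, Rb1 (1.31 ± 0.13) and E2f6 (1.84 ± 0.59) were higher at 4 h and 0 were called at 24 h. Of 14 DNA damage checkpoint genes, 0 were called at 24 h, and at 4 h 0 were higher and 2, Gadd45b (-1.41 ± 1.02) and Rad1 (-1.17 ± 0.33), lower.

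These ratios stand beside a shift of abundant transcripts at 4 h. In a list of abundant transcripts outside translation, such as Gapdh and Ppia, 3 of 35 at 24 h and 19 of 35 at 4 h were higher, with medians of 0.11 and 1.79, while transcripts of unrelated tissues had medians of 0.05 and -0.21. With the median of the abundant list set to 0 on every array, 0 members at 24 h and 1 at 4 h, Cdk4 at 1.71, were higher. Then 2 members at 24 h and 39 at 4 h were lower. Of all 11138 genes, 118 at 24 h and 131 at 4 h were then higher, and 186 and 8951 lower. Cdk1, Ccng1 and Ccnb2 lost their 4 h calls under this centring. Cdk1 was then at 1.01 and -0.29 and Ccnb2 at 1.04 and -0.38, with arrays of opposite sign, and Ccng1 at 0.39 and 0.29. Bub1b, Ccng2, Cdc45, Cdc7 and Ccna2 turned below 0. The median of all genes was then -0.13 at 24 h and -1.77 at 4 h, and the members lay above it by 0.15 and 0.26, as before. The part of transcript abundance in the members' ratios was not tested.

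**Figure D5:**
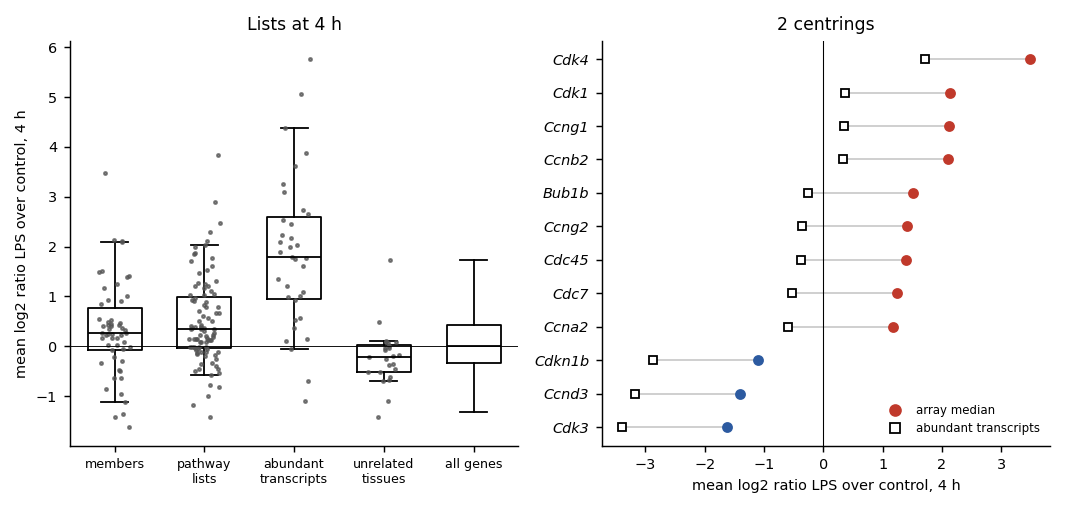
Left, mean log2 ratio at 4 h for the 54 members, 95 other cell cycle genes, 35 abundant transcripts, transcripts of unrelated tissues and all genes (boxes, quartiles and median; whiskers, 5th to 95th percentile; dots, genes). Right, 4 h means of the 12 called members centred on the array median (filled) and on abundant transcripts (open squares); under the second, the means of 4 members are above 0, of which Cdk4 alone is called.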

How the data were processed

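Gene expression was measured on 4 two-colour arrays, 2 each for LPS 24 h and LPS 4 h. Each array's column as deposited is a set of log2 dye ratios with a median of 0. Per the labels, RNA was amplified and the dyes were exchanged on the second array of each time. Scanner, background correction and normalization were not given in the sources used here. No intensities were in the table, so faint spots could not be removed, and depth does not apply; the number of arrays limits the precision.

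Of 32448 spots, 24344 had 1 symbol in the platform annotation, 98 had several and 8006 were unnamed. All 54 members matched the Entrez identifiers of RefSeq in GRCm38.p6. Before any sign was turned, paired arrays correlated over spots at r = -0.04 (24 h) and r = -0.23 (4 h). The reversed array was turned in sign, each array centred on its median, spots averaged by gene and arrays averaged by time (Python 3.11.15, pandas 2.3.3). Shared ratios were fitted with limma 3.58.1 in R 4.3.3 (Benjamini-Hochberg). Both steps were tested on simulated data.

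Members and lists were chosen with earlier results of these data known. Values on each array are given for members called at either time or between times, for those on opposite sides of 0 at the 2 times, and for Ccnd1, Cdk4, Cdk1, Ccna2, Cdc20, Cdkn1a, Aurka and Bub1; other genes were named with their values known. The settings varied were quantile normalization, ratios of exactly 1 taken as not measured, centring on abundant transcripts, the median of spots, the mean alone, a 1.5-fold threshold, each array left out, and other limma fits. Leaving out values whose duplicate spots differ by over 2 (log2) was added after seeing the data.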

Additional observations from a re-analysis of the deposited data

Results flagged for a closer look

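For 8 of the 54 members, both arrays at 24 h lay on the opposite side of 0 from both arrays at 4 h, a share of 14.8%; over all genes it was also 14.8%. The difference between the times was not tested for any of them. Below 0 at 24 h and above it at 4 h were Cdc45 (difference, 24 h minus 4 h, -2.61), Cdc25a (-1.72), Orc4 (-1.41), Cdk6 (-0.88) and Cdkn2b (-0.39). Above 0 at 24 h and below it at 4 h were Cdk16 (1.17), Aurkb (1.03) and Cdkn2c (0.37). Relative to abundant transcripts the 4 h means of Cdc45 (-0.39), Cdc25a (-0.28), Orc4 (-1.23), Cdk6 (-1.29) and Cdkn2b (-1.45) were below 0 too. The differences of Orc4 (0.21), Cdk6 (0.74) and Cdkn2b (1.23) then turned above 0. The means of Cdk16, Aurkb and Cdkn2c stayed above 0 at 24 h and below it at 4 h.

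Relative to the array median, Cdc45 alone of the 8 was past the 2-fold rule, at both times, with spots that agreed in sign on every array. The difference of Cdc25a held a spot at 5.43 at 4 h, that of Orc4 a spot at -5.58 at 24 h, and that of Cdkn2b a spot at 3.42 at 4 h, each beside a spot of the same oligonucleotide more than 2 away. The 4 h arrays of Cdkn2c, at -0.08 and -0.07, were close to 0.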

How the results depend on the processing

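The direction was the same for all 13 called values of members (12 at 4 h, 1 at 24 h) under quantile normalization, the median of spots, and with ratios of 1 or discordant duplicate spots as not measured, where a value was left; leaving out an array cannot turn a call, since the rule demands both. Centring on abundant transcripts turned 5 of them at 4 h: Bub1b (-0.26), Ccna2 (-0.60), Ccng2 (-0.36), Cdc45 (-0.39) and Cdc7 (-0.53); this subtracts a constant per array. Cdk4 alone kept its 4 h call as higher there. With it 0 members at 24 h and 1 at 4 h were higher, and 2 at 24 h and 39 at 4 h lower; 118 genes at 24 h and 131 at 4 h were higher, and 186 and 8951 lower. The members' medians were 0.020 at 24 h and -1.51 at 4 h, beside -0.13 and -1.77 for all genes. By the difference rule 39 members were higher and 1 lower at 24 h than at 4 h, a count not made over all genes. Quantile normalization gave 3 members higher at 24 h (Bub3, Ccnb2 and Cdk2), a 24 h median of 0.21, 409 genes higher and 148 lower at 24 h, and 3 members higher at 24 h than at 4 h; at 4 h it lost Ccna2 and Cdc7. Ratios of 1 as not measured added Cdc20 at 4 h (1.47). Without discordant duplicate spots, Cdk3 was no longer measured, and 107 genes were higher and 37 lower at 24 h. The mean alone gave 2 members lower (388 genes higher, 280 lower) at 24 h. The 1.5-fold threshold gave 5 members higher and 2 lower (978 and 742 genes) at 24 h and 14 and 7 (1846 and 1468 genes) at 4 h.

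Leaving out an array gave 1 to 4 members higher and 2 to 3 lower at 24 h, and 9 to 13 higher and 2 to 4 lower at 4 h. Over all genes it gave 502 to 771 higher and 310 to 818 lower at 24 h, and 1376 to 1476 and 996 to 1007 at 4 h. The 24 h median of members was 0.10 to 0.12. Between 3 and 7 members were then higher at 24 h than at 4 h. Without the 24 h array with LPS in Cy5, Cdc45 was not called at 24 h; without the 4 h array with LPS in Cy5, Bub1b, Cdc7, Ccnd3 and Cdkn1b were not, and without the other Ccna2 was not. The fits with limma called 0 members in all settings run. No analysis across paired cultures was possible, because the labels name no separate cultures and each time counts as 1 RNA pair. The causes of these changes were not tested, except where the setting itself removes values or arrays. Without intensities, signal over background could not be judged.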
